A study of Mus musculus with 6 samples.

Results

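The forkhead family comprised the 44 protein-coding genes on the main chromosomes of mm10 (GRCm38.p6) whose symbol is Fox followed by a letter from a to s and a number, of 21887 protein-coding genes in all. They were split into 14 broad genes, the Foxo, Foxk and Foxp families with Foxj2, Foxj3, Foxn2 and Foxn3, and 29 restricted genes that are known mainly from particular tissues. Foxo6, Foxp2 and Foxp3 were placed in the broad class by family, although they are linked below to particular tissues or cells. Foxm1, which is linked to the cell cycle, was kept in neither class. The data are H3K4me3 peak lists from cochlear progenitor cells sorted for Lgr5 from newborn mice, with 2 libraries of cells treated with neomycin for 12 h and 2 of untreated cells. Neomycin is an aminoglycoside, a class of antibiotic toxic to the hair cells of the ear, and the comparison concerns the mark in the progenitors after that damage.

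All groups came from Lgr5-EGFP-creERT2 mice on the C57BL/6 strain, of either sex and 0 to 3 days old, in which EGFP and the inducible Cre are driven from the Lgr5 gene. Their cochleae were cultured with B27, N2, IGF-1, heparin sulfate, bFGF and EGF, and dissociated cells were sorted in the GFP channel, so a library holds the cells that fall in that gate. Whether replicates are separate cultures is not stated in the labels, and p-values measure the spread between these libraries, which may be technical. The labels give H3K4me3 for all 4 libraries, with the same antibody (ab8580), while the deposited names of both untreated lists give H3K4me2. Which of these marks the untreated lists hold is therefore uncertain, and a difference in treatment and one in the mark cannot be told apart. The lists held 10520 to 15938 peaks and no read totals, so depth is unknown. Values for the libraries are given below in the order neomycin replicate 1, neomycin replicate 2, untreated replicate 1 and untreated replicate 2, which is called library order. The shortest peaks of the lists were 48, 110, 187 and 234 bp. Peak lengths are therefore not on the same scale in the libraries. Of 10 supporting and progenitor cell markers, 9 had a promoter peak in neomycin replicate 1, which lacked Sox2, and 10 in each of the other 3 libraries. Of 6 liver and olfactory genes and of 5 macrophage and blood genes, 0 had one in any library. Hair cell, neuron, glia, melanocyte, endothelium and mesenchyme lists were each marked in part, with counts given below. Neuron genes, for example, had 0, 2, 4 and 2 of 6 marked, and melanocyte genes 2, 2, 2 and 0 of 4. The lists therefore do not show that other cells were absent.

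Forkhead proteins are transcription factors that share a winged-helix DNA-binding domain. Some act in nearly every cell: FoxO proteins are held in the cytoplasm when Akt phosphorylates them and enter the nucleus under stress, where they switch on genes of cell cycle arrest and antioxidant defence. Others are regulators of 1 lineage, such as Foxi3 in the otic placode. H3K4me3 marks promoters that are active or poised, most of them rich in CpG dinucleotides.

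The 3 Foxi genes, which are close paralogues, and 2 broad genes show the range of start sites in the family. RefSeq start sites in GRCm38.p6 were available for 28 of the 44 genes. The sequences run from 250 bases before the start to 50 after it, 5′ to 3′ on the gene's strand, and capitals mark CpG dinucleotides. Foxi1 lies at chr11:34208040-34208339 on the minus strand, Foxi2 at chr7:135410117-135410416 on the plus strand and Foxi3 at chr6:70956356-70956655 on the plus strand. They are shown because Foxi3 was the only one of them with a peak.
Foxi1: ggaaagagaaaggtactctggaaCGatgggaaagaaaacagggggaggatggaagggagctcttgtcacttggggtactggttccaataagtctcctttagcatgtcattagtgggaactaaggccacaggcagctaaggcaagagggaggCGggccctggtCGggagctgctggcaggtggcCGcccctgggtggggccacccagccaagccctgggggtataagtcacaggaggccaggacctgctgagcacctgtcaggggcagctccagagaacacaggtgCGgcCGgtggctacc
Foxi2: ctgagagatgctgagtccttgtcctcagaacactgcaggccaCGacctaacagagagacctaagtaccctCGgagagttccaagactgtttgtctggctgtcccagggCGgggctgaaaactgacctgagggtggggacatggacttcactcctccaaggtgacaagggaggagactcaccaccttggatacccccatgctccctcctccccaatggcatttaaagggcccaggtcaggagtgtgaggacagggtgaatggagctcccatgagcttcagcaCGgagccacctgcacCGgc
Foxi3: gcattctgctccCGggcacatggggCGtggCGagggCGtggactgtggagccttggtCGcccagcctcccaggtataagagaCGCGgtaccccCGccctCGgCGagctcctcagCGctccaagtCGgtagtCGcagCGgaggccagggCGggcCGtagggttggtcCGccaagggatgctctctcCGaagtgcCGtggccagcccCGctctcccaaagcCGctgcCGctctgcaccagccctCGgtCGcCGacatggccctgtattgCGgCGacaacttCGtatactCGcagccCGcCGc
The Foxi1 and Foxi2 stretches hold 6 and 5 CpG dinucleotides and that of Foxi3 holds 31.

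Foxk2, on the plus strand at chr11:121259737-121260036, is shown as the forkhead stretch with the most CpG dinucleotides, 59, at a gene marked in the untreated libraries alone. Foxp1 is shown because it has 3 start sites that were marked differently. They lie on the minus strand at chr6:99028249-99028548 (start 1, with 44 CpG), chr6:99266466-99266765 (start 2, with 5) and chr6:99520944-99521243 (start 3, with 13).
Foxk2: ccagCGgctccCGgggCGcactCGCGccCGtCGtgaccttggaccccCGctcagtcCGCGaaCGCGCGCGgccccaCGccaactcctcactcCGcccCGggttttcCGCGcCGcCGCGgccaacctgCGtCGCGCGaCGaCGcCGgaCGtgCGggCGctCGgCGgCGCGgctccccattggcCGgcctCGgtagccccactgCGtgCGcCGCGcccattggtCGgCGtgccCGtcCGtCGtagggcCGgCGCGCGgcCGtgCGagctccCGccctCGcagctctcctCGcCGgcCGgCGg
Foxp1 start 1: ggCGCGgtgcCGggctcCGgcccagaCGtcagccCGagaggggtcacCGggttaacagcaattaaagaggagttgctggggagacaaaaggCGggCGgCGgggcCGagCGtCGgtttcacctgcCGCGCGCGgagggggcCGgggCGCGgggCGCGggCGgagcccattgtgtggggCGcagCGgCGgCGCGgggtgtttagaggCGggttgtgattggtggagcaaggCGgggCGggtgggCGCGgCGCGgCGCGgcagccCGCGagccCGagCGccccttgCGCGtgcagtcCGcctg
Foxp1 start 2: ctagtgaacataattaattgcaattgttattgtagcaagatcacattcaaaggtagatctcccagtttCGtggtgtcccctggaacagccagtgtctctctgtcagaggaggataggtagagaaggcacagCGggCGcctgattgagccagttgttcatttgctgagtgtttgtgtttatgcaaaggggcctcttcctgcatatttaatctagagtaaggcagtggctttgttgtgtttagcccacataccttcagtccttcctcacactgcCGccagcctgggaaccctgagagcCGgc
Foxp1 start 3: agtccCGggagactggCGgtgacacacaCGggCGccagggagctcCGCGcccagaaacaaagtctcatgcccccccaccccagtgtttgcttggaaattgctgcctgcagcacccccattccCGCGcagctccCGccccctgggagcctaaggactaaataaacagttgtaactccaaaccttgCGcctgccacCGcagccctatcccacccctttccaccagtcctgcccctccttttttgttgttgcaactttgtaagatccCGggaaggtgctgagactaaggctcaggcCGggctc

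A promoter was called marked in a library when a deposited peak overlapped the window of 1 kb either side of a start site. For the 16 genes with no entry in the start site table, the window lay at the end of the gene that held peaks in more libraries. They include Foxb1, Foxc2, Foxe1, Foxf1, Foxh1, Foxj1, Foxk1, Foxl1, Foxm1, Foxn2, Foxo4, Foxo6, Foxp2, Foxq1 and Foxs1, and the end used is not known to be their start. Their marks are favoured by the choice of end. A missing peak means that none was called, not that the mark was absent.

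The forkhead family as a whole was marked about as often as other genes, and its 2 classes lay on either side of the rest. In the neomycin libraries, 17 and 13 of the 44 promoters were marked (38.6% and 29.5%), against 34.8% and 33.6% of all genes. In the untreated libraries the counts were 25 and 20 (56.8% and 45.5%), against 47.0% and 36.3% of all genes. At least 1 library marked 28 members (63.6%, against 55.0% of all genes), and all 4 marked 8 (18.2%, against 16.6%). Both untreated counts exceeded both neomycin counts, with means of 22.5 ± 3.54 (SD, n = 2) and 15.0 ± 2.83 (SD, n = 2). The exact permutation test over the libraries, two-sided, gave p = 0.33, the smallest that 2 against 2 libraries allow.

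Broad genes were marked more often than restricted genes in each of the 4 libraries. In library order, the broad class had 9, 7, 12 and 10 of 14 promoters marked. Those counts correspond to 64.3%, 50.0%, 85.7% and 71.4%. The restricted class had 7, 6, 12 and 9 of 29, or 24.1%, 20.7%, 41.4% and 31.0%. The gap was 29.3 to 44.3 percentage points, and the restricted shares lay below those of all genes in every library while the broad shares lay above them. In all 4 libraries, 6 broad genes (42.9%) and 2 restricted genes (6.9%) were marked, against 16.6% of all genes. No peak in any library was found at 2 broad (14.3%) and 14 restricted genes (48.3%), against 45.0% of all genes. By this last measure the restricted class was near the share of all genes. Members of a class are not replicates, so the gap was not tested. With lists of equal length, where fewer peaks enter 3 of the lists, the gap for marks in all 4 libraries was 21.7 points instead of 36.0.

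**Figure D1:**
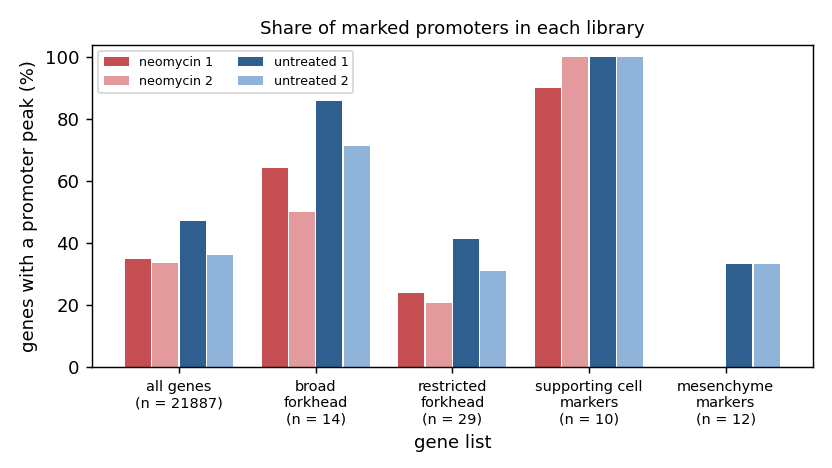
Share of genes with a peak within 1 kb of a start site (y axis, percent) in each of the 4 libraries (bars) for all genes, the 2 forkhead classes and 2 marker lists (x axis). Broad forkhead genes sit at 50.0% to 85.7%, restricted forkhead genes at 20.7% to 41.4%, and mesenchyme markers at 0.0% in both neomycin libraries and 33.3% in both untreated libraries.

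The FoxO genes, effectors of insulin and stress signalling, differed among themselves. Foxo3, on chromosome 10 from 42181845 to 42276695, had peaks summing to 210 and 438 bp with neomycin and to 1202 and 1098 bp without. These sums ranked at percentiles 84.8, 92.1, 97.0 and 96.9 among the marked promoters of the same library, so Foxo3 was a long domain in each. Foxo1, on chromosome 3 from 52268337 to 52350109, had 158 and 142 bp with neomycin and 835 and 612 bp without, at percentiles 70.9, 33.9, 86.8 and 76.2. Its peaks lay on both sides of the start in neomycin replicate 1 and untreated replicate 2. Foxo4, on the X chromosome, had a single peak of 270 bp, in untreated replicate 1. Foxo6, a FoxO member known mostly from the brain, lies on chromosome 4 from 120267078 to 120287261. It had 485 and 684 bp of peaks at its upper end in the untreated libraries and no neomycin peak within 118 and 283 kb of the gene.

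Of the Foxk genes, repressors that bind the Sin3 complex and restrain autophagy genes, Foxk2 was marked in the untreated cells alone and Foxk1 was not. Foxk2, on chromosome 11 from 121259987 to 121309900, had 3 peaks summing to 989 bp in untreated replicate 1 and 1 peak of 422 bp in untreated replicate 2. The nearest neomycin peaks lay 22.4 and 43.8 kb from the gene. This held although its start stretch, printed above, is the most CpG rich of the forkhead starts. Foxk1 had 57 and 122 bp in the neomycin libraries, 389 bp in untreated replicate 1 and none in untreated replicate 2, where the nearest peak lay 2.11 kb beyond the other end of the gene. With a window of 2.5 kb, Foxk2 and Foxo6 were the 2 members that were still marked in the untreated cells alone.

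The Foxp genes, leucine-zipper repressors that bind DNA as dimers, include Foxp1. Its peak length, summed over 3 start sites, was the largest of the family in 3 of the 4 libraries. In neomycin replicate 1 the summed length at Foxc1, 402 bp, was above it. Foxp1, on chromosome 6 from 98925342 to 99522746, summed to 387 and 669 bp with neomycin and to 2194 and 1420 bp without, over the windows of its 3 start sites. That placed it at percentiles 98.8, 99.0, 100.0 and 99.2, although a gene with 3 windows can collect more peaks than a gene with 1. By single start, Foxp1 was the longest in untreated replicate 2 alone. In neomycin replicate 2 its longest start had 289 bp, against 438 bp at Foxo3. In untreated replicate 1 it had 1459 bp, against 1464 bp at Foxp4. The start sites differed. Start 3 was marked in all 4 libraries, with 132 and 257 bp with neomycin and 1459 and 1420 bp without. Start 1, with more CpG, had 255 and 289 bp with neomycin, 735 bp in untreated replicate 1 and no peak in untreated replicate 2, and start 2 had 1 peak of 123 bp in neomycin replicate 2.

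Foxp4 and Foxp2 were also marked in all 4 libraries. Foxp4, on chromosome 17 from 47867133 to 47924632, had 74, 308, 1464 and 790 bp in library order. Its rank in the library was lower in both neomycin libraries, at percentiles 30.1 and 77.8 with neomycin and 99.0 and 88.3 without. Foxp2, a regulator of vocal and motor circuits, had 51, 136, 480 and 262 bp at the lower end of the gene, at percentiles 14.5 to 55.9. Foxp3, the regulator of regulatory T cells, had no peak within 62.1 kb in any library.

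Of the other broad genes, Foxn2 was marked in all 4 libraries, with 226, 116, 1123 and 599 bp in library order. Foxj2 had 112 bp in neomycin replicate 1 and 969 and 727 bp in the untreated libraries, and Foxj3 had 114 bp and 731 and 539 bp. Neither had a peak at the start in neomycin replicate 2, which had the fewest forkhead marks. Foxn3, a checkpoint-linked repressor on chromosome 12 from 99190081 to 99563667, was unmarked at the start in the RefSeq table, which lies inside the annotated gene. At its upper end both untreated libraries had a peak within 0.379 kb, and each neomycin library had 1 between 1.03 and 1.32 kb inside the gene. Foxn3 was thus marked in all 4 libraries when peaks in the gene body counted, and in the untreated cells alone when either end of the gene counted. Foxm1, the activator of mitotic genes, had 105 bp in neomycin replicate 1 and 365 and 352 bp in the untreated libraries, but its window is shared with Rhno1, whose end lies 83 bp away.

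**Figure D2:**
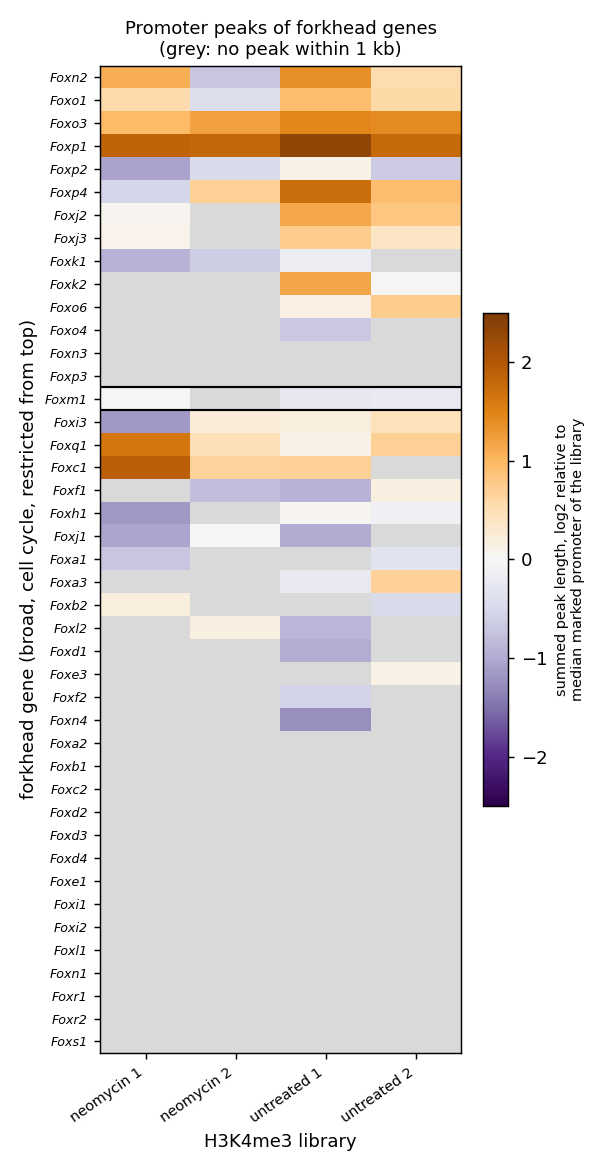
Summed length of the peaks at the promoters of the forkhead genes shown (rows) in the 4 libraries (columns), as log2 relative to the median marked promoter of the library, with grey for no peak within 1 kb. Rows are ordered by class and then by the number of libraries marked. Most broad genes at the top are coloured, and the lower 14 restricted rows are grey throughout.

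Among the restricted genes linked to the ear and its ectoderm, Foxi3 and Foxq1 were marked in all 4 libraries. Foxi3, needed for the otic placode and the branchial arches, lies on chromosome 6 from 70956606 to 70961066. It had 48 and 223 bp of peaks with neomycin and 500 and 567 bp without, and each peak but 1 lay over the start or within 0.009 kb of it. The exception was a second peak in untreated replicate 1. Foxi1, which sets up ionocytes of the endolymphatic sac, had no peak within 361 kb in any library, and Foxi2, a gene of the cranial ectoderm, none within 124 kb. Foxq1, known for its part in hair shaft formation, had 331 and 265 bp with neomycin and 480 and 666 bp without at its lower end, on chromosome 13 from 31558170. It was the 1 member of the 8 whose rank was highest in a neomycin library, at percentile 97.1 in replicate 1 against 68.4, 55.9 and 80.5. Foxe1 and Foxn1, of thyroid and thymus, were unmarked, and Foxe3, a lens gene, had a peak of 452 bp in untreated replicate 2.

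A mark in each untreated library and in no neomycin library was found at 4 members, or 14.3% of the 28 marked members, against 8.47% of all marked promoters. They include Foxk2, Foxo6 and Foxa3. In the reverse direction there were 0 members, against 2.56% of all marked promoters. With 4 genes the first share rests on few members, and it counts Foxa3, whose neomycin peaks lay within 2 kb of the site but outside the window. Foxa3, an endoderm and liver factor on chromosome 7 from 19013283 to 19023539, had untreated peaks of 374 and 661 bp that began 0.911 and 0.923 kb before its start. The start of Sympk, on the opposite strand, lies 838 bp before that of Foxa3, and these peaks lie beyond it, inside Sympk. The neomycin libraries had peaks 1.05 and 1.52 kb before the Foxa3 start, also inside Sympk. Foxa3 had no untreated-only mark with a window of 0.5 or 2.5 kb. The excess over other genes depended on the window. With 0.5 kb the pattern held for 5 members (20.0% of those marked, against 11.9% of all marked promoters). With 2.5 kb it held for 2 (6.67%, against 7.91%), and when peaks in the gene body counted it also held for 2, Foxk2 and Foxo6 (6.67%, against 7.57%). In both of these settings the forkhead share was no longer above that of all genes.

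Single libraries also set these counts. Without untreated replicate 1, Foxc1, Foxj1 and Foxk1 were marked in both neomycin libraries and not in the untreated library that remained, in place of 0. That is 12.5% of the marked members, near the 11.6% of all marked promoters under the same omission. The untreated-only members were 8 instead of 4 without neomycin replicate 1 (28.6%, against 21.0% of all marked promoters) and 8 without untreated replicate 2 (29.6%, against 16.2%). Without neomycin replicate 2 they were 5 (17.9%, against 19.3%). The share over all genes thus rose with these omissions too. Foxc1, a regulator of head mesenchyme and the eye, had 5 peaks summing to 402 bp in neomycin replicate 1, 298 bp in neomycin replicate 2 and 710 bp in untreated replicate 1, and no peak at the start in untreated replicate 2. That library had its nearest peak 0.295 kb beyond the other end of the gene.

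**Figure D3:**
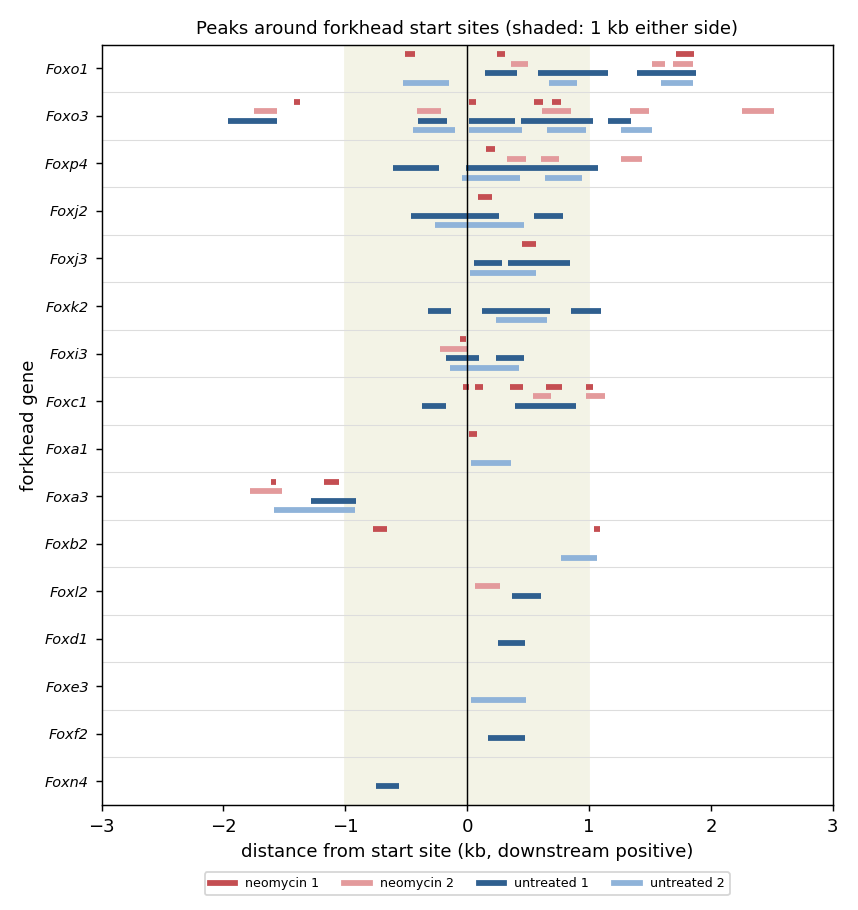
Peaks within 3 kb of the start of the 16 forkhead genes that have 1 start in the RefSeq table and a mark in at least 1 library (rows), by distance from the start in kb with downstream positive (x axis), for the 4 libraries (colours). The shaded band is the window of 1 kb either side, and the Foxa3 peaks lie at its upstream edge or outside it.

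Forkhead genes of mesenchyme were marked in scattered libraries. Of the 8, Foxc1, Foxc2, Foxd1, Foxd2, Foxf1, Foxf2, Foxl1 and Foxs1, the marked numbers were 1, 2, 4 and 1 in library order, and 0 were marked in all 4 libraries. Their highest share, 50.0% in untreated replicate 1, was near the 47.0% of all genes in that library, which marked the most genes of the 4, and the others were 12.5%, 25.0% and 12.5%, against 34.8%, 33.6% and 36.3%. Foxf1, of the splanchnic mesoderm, had 110 bp in neomycin replicate 2 and 235 and 462 bp in the untreated libraries. The same peaks lie within 1 kb of Fendrr, a long non-coding RNA gene beside it. Foxf2 and Foxd1 had 1 peak each in untreated replicate 1, of 299 and 224 bp. Of 12 mesenchyme and fibrocyte markers, the numbers marked were 0, 0, 4 and 4. The 33.3% in each untreated library lay below the 47.0% and 36.3% of all genes. The 0.0% in each neomycin library stood against 34.8% and 33.6%. Their summed peak lengths were 0 and 0 bp with neomycin and 1356 and 2053 bp without. The collagen genes Col1a1, Col1a2 and Col3a1 were among the 7 of these markers with no promoter peak in any library, and 5 had one in at least 1. Untreated replicate 2, with 4 marked mesenchyme markers, had 1 marked mesenchyme forkhead. The part of other cells in the forkhead marks was not tested. In bulk libraries, fewer marked cells and less mark per cell cannot be told apart.

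Both large forkhead gene clusters held peaks. The stretch of 254 kb on chromosome 13 from Foxq1 over Foxf2 to Foxc1 had 11, 5, 7 and 4 peaks in library order. These summed to 952, 681, 2204 and 1455 bp. The stretch of 48.3 kb on chromosome 8 with Foxf1, Foxc2 and Foxl1 had 1, 3, 3 and 2 peaks, and neither Foxc2 nor Foxl1 had a peak at the gene end used.

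Forkhead genes of the gut, nervous system and germ line were mostly unmarked or marked in part. Foxa2, a floor plate and endoderm factor with 3 start sites, had no peak within 348 kb, while its paralogue Foxa1 had 65 bp in neomycin replicate 1 and 324 bp in untreated replicate 2. Foxd3, a neural crest and glial precursor gene, had 1 peak inside the gene in untreated replicate 1, which began 1.11 kb from the start, and was unmarked. Sox10, a glial marker that otic epithelium also expresses, was marked in all 4 libraries. Foxn4, Foxb2 and Foxl2, of retina, brain and ovary, were marked in 1, 2 and 2 libraries. Foxh1, a partner of Smad proteins, was marked in 3 libraries, but the end of Ppp1r16a lies 29 bp from the gene end used. Foxj1, the switch for motile cilia, had 52 and 195 bp with neomycin, 223 bp in untreated replicate 1 and none in untreated replicate 2. Its end lies 846 bp from that of Rnf157. Of 28 marked members, 6 had another protein-coding gene within 1 kb of the site, and 22 of the 38 members without such a gene were marked.

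The 16 unmarked members were mostly far from any peak. For 13 of them every peak of the 4 libraries lay over 5 kb from the gene, and for 4, Foxa2, Foxb1, Foxi1 and Foxi2, over 100 kb. Foxn3 and Foxd3 had peaks inside the gene, and Foxl1 had one 2.02 kb away in untreated replicate 1. These distances were not taken for the other unmarked genes of the series, so whether they are unusual is not known.

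CpG-rich forkhead starts were marked more often than CpG-poor ones, as at other genes, and CpG content differed between the classes. Forkhead genes had 33 start sites in the table. An observed over expected CpG ratio of at least 0.6 is a common definition of CpG-rich sequence, and this split was added after the data were seen. Of 21 CpG-rich forkhead starts, 15 (71.4%) were marked in at least 1 library, against 89.9% of 10137 CpG-rich starts of all genes. Of 12 CpG-poor ones, 4 (33.3%) were, against 21.0% of 11126. The 7 CpG-rich starts of broad genes each had a mark in at least 1 library, and 3 had one in all 4. Of 14 CpG-rich starts of restricted genes, 8 were marked somewhere and 1, that of Foxi3, in all 4. The other 6 had no peak in any library, a share of 42.9%, against 10.1% of the CpG-rich starts of all genes. They were 2 of the 3 starts of Foxa2 and the starts of Foxd2, Foxd3, Foxd4 and Foxr1. The classes also differed in CpG among their CpG-rich starts, with a median ratio of 1.0 for broad, 0.733 for restricted and 0.838 for all genes, so CpG content was not held equal. Its part in the gap between the classes was not tested. Starts of 1 gene can share peaks where their windows overlap. Among the printed stretches, Foxk2 was the richest and was not marked with neomycin, while start 3 of Foxp1, with a ratio of 0.499, was marked in all 4 libraries. The ratio describes the printed bases alone, and a peak elsewhere in the window also counts as a mark. In neomycin replicate 1 and untreated replicate 2 the peaks of start 3 lay outside its printed bases.

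**Figure D4:**
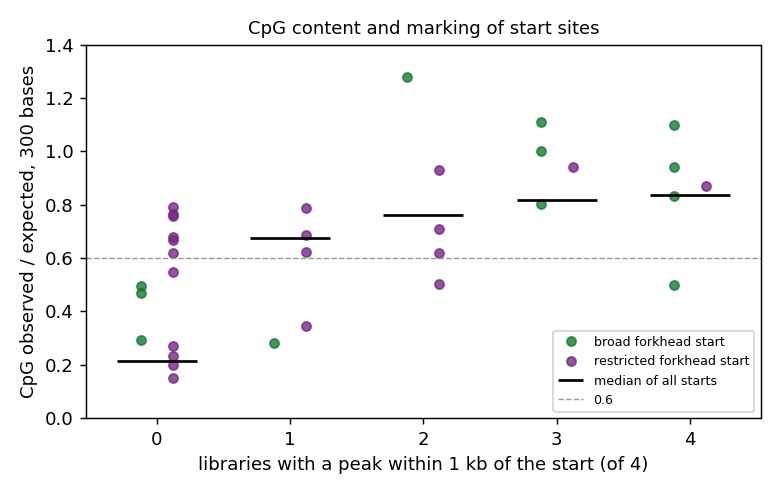
Observed over expected CpG ratio of the 300 bases at each forkhead start site in the RefSeq table (y axis) by the number of libraries with a peak within 1 kb (x axis), with broad genes in green, restricted genes in purple, black bars for the median of all starts and a dashed line at 0.6. Restricted starts above 0.6 are found at 0 libraries, where the median of all starts is 0.216.

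The forkhead consensus itself was rare in these stretches. The letters TGTTTAC, or GTAAACA on the other strand, were found in 1 of the 33 forkhead stretches, that of Foxa1 (3.03%), and in 3.01% of 21263 stretches of all genes.

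The length of the marked domain was compared at the 3638 promoters marked in all 4 libraries, as log2 of summed peak length after centring each library on its median. In limma, 0 promoters passed a Benjamini-Hochberg adjusted p of 0.05 (0.0% of those tested), 353 had an unadjusted p under 0.05, and the smallest adjusted p was 0.222. The 8 forkhead genes among them were not called. They passed only because every library marked them, so they do not stand for the family. The largest difference was at Foxp4, whose centred values were -0.76 and 0.38 with neomycin against 1.36 and 0.76 in untreated cells. The neomycin minus untreated log2 difference was -1.24 (SE 0.62, limma adjusted p 0.528). Leaving out 1 library at a time, the Foxp4 difference was -0.67 without neomycin replicate 1 and -1.81 without neomycin replicate 2. It was -0.94 without untreated replicate 1 and -1.55 without untreated replicate 2. Each of these fits leaves 1 library in a group. For the highest fold enrichment in place of length, the Foxp4 difference was -0.01. With all 4 libraries, Foxi3, Foxn2 and Foxo1 had length differences of -0.78, -0.75 and -0.67, with SE of 0.63, 0.65 and 0.62. Foxq1 was the 1 member above 0, at 0.66 (SE 0.63). Foxo3, Foxp1 and Foxp2 lay at -0.33, -0.21 and -0.5. Without centring, the median of all promoters was -1.59 and 1139 were called, so the values above are relative to that shift.

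Partners and targets of forkhead proteins were marked more often than the family as a whole, but not more often than its broad class in most libraries. Of 58 such genes, 37, 43, 50 and 40 were marked in library order (63.8%, 74.1%, 86.2% and 69.0%). The shares of all genes were 34.8%, 33.6%, 47.0% and 36.3%. In all 4 libraries 23 were marked (39.7%, against 16.6% of all genes). The broad class stood at 42.9% in all 4. In library order it stood at 64.3%, 50.0%, 85.7% and 71.4%, well below the partners in neomycin replicate 2 alone. Of the partner genes with a mark, 5.66% had it in the untreated cells alone, against 8.47% of all marked promoters. In the neomycin cells alone the share was 1.89%, against 2.56%. The 15 FoxO targets include the arrest gene Cdkn1b and the antioxidant gene Sod2. Each of the 15 had a mark in at least 1 library (100.0%, against 55.0% of all genes). In all 4 libraries 9 had one (60.0%, against 16.6%), and 0 had one in 1 group alone. Bcl2l11, a pro-apoptotic FoxO target, had 281, 646, 1240 and 297 bp in library order, and Bcl6, a repressor, had 74, 161, 315 and 673 bp. Of 19 upstream regulators of FoxO, 9 were marked in all 4 (47.4%, against 16.6% of all genes). These included Akt2, a kinase that phosphorylates FoxO, with 271, 229, 477 and 561 bp. The 2 untreated-only genes of this list were Pik3ca, the catalytic subunit of the lipid kinase above Akt, with 731 and 725 bp, and Ywhae, a 14-3-3 protein, with 783 and 933 bp.

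Of 12 cofactors of Foxk and Foxp proteins, 3 were marked in all 4 libraries (25.0%, against 16.6% of all genes). Among them was Asxl1, a Polycomb-associated cofactor, with 86, 143, 1064 and 593 bp. Mta1, a subunit of a nucleosome remodelling complex, was marked in the untreated cells alone, with 1094 and 947 bp. Hdac1, a histone deacetylase, was marked in the neomycin cells alone, with 48 and 380 bp at a gene end that the table does not identify as its start. Of the 8 Foxm1 targets, which act in mitosis, the marked numbers were 4, 6, 7 and 1 in library order. The shares were 50.0%, 75.0%, 87.5% and 12.5%, against 34.8%, 33.6%, 47.0% and 36.3% of all genes. In all 4 libraries 0 had a mark, against 16.6% of all genes. The untreated libraries hold both the highest and the lowest count. Of the corepressor genes in the list, Tle1 and Tle4 had a mark in all 4 libraries.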

How the data were processed

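H3K4me3 peak lists of 4 libraries were used, 2 per group; the 2 input libraries were not used here. The submitters' processing notes name CASAVA 1.4, Bowtie2, MACS2, deepTools and mm10 without roles; parameters were not given in the sources used here. Each deposited list gives, per the file headers, positions, length, the pileup signal at the summit, a fold enrichment (a ratio over local background) and -log10 p-value and q-value of every peak. These are the authors' values per peak. Lists were made per library.

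Start sites and strands came from a RefSeq promoter table of GRCm38.p6, which held 17492 of 21887 protein-coding genes and 28 of 44 forkhead genes. For the others the window lay at the gene end with peaks in more libraries, then more peak bases, then the lower coordinate. A promoter was marked with an overlap of at least 1 bp. Domain lengths were compared with limma 3.58.1 in R 4.3.3 over all promoters marked in all 4 libraries. Peaks were joined to genes in Python 3.11.15 with pandas 2.3.3 and numpy 2.4.6, and plotted with matplotlib 3.10.9. Both steps were tested on simulated data.

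Groups and replicate numbers came from the labels. Every forkhead gene could be named; 1 member, kept in all counts, and 1 marker gene are not reported here. Values in each library are given for members marked in all 4 libraries, for those in 1 group alone and for otic forkheads. Of the partner genes, those in 1 group alone and the first 4 in alphabetical order of those in all 4 libraries are named with values. Genes named as examples beyond these were chosen after their values were seen. Members, classes and lists were chosen with earlier results of these data known. Of the other marker lists, hair cell genes were marked in 2, 1, 4 and 1 of 6, and neuron genes in 0, 2, 4 and 2 of 6. Glia were marked in 1, 1, 3 and 2 of 5, melanocytes in 2, 2, 2 and 0 of 4, and endothelium in 2, 1, 1 and 0 of 4. The shares of all genes were 34.8%, 33.6%, 47.0% and 36.3%. Alternatives changed the window, the q threshold, the covered bases, list length, start site, classes, libraries and, for length, the scale and filter.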

Additional observations from a re-analysis of the deposited data

How the results depend on the processing

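With a window of 2.5 kb, 2 members were untreated only and the class gap in marks in all 4 libraries was 29.1 points. When only peaks reaching a -log10 q of 10 counted, 0 members were marked in all 4 libraries and the gap was 0 points. At least 1 library then marked 15 members, against 6101 of 21887 genes. The lists then hold 283 to 6279 peaks. The comparison of domain length could not be fitted because 0 promoters were marked in all 4. When 500 bp had to be covered, the values were 0, 13 and 0 points. Of all genes, 4955 were then marked in at least 1 library and 3 in all 4. In both settings almost no gene was marked in all 4 libraries, so a gap of 0 points does not show that the classes were alike. With lists of equal length the gap was 21.7 points. Leaving out 1 library at a time gave 8 to 12 members in all remaining libraries, 24 to 28 in at least 1, 5 to 8 in untreated cells alone (17.9% to 29.6% of those marked, against 11.3% to 21.0% of all marked promoters), 0 to 3 in neomycin cells alone (0.0% to 12.5%, against 4.01% to 11.6%) and a gap of 32.5 to 46.8 points. With alternative classes, in which Foxo6, Foxp2 and Foxp3 moved to restricted and Foxm1 to broad, the gap was 32.3 points. After seeing the data, peaks in the gene body were counted, which gave 2 untreated-only members, and members in the start site table alone were taken, which gave 5, 17 and 2 members marked in all 4, in at least 1 and in untreated cells alone.

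The replicate block, fitted although the labels do not tie equal numbers together, called 0 promoters by length, and the deviations of the replicates 1 had a correlation of -0.0186. Without centring 1139 were called, with the highest fold enrichment 1, with marks in at least 3 libraries 4, and without 1 library 0 to 307 (115 without neomycin replicate 1, 307 without neomycin replicate 2). The lone library is then assumed to vary like the other group. Foxn2 ranged from -1.69 to 0.19 over the 4 omissions, above 0 without neomycin replicate 2, Foxp1 turned to 0.1 for bases inside the window, Foxp2 to 0.43 and Foxq1 to -0.02 for the highest fold enrichment, and Foxq1 to -0.93 without centring. The causes were not tested. Depth is unknown, so an uncalled peak cannot be read as absence.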

Other observations

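Among long non-coding RNA genes beside forkhead genes, Foxd2os and Foxo6os were without a peak, counting 1 kb on each side, in every library. Foxl2os, whose end lies 297 bp from the Foxl2 start, shared the Foxl2 peaks of 212 bp in neomycin replicate 2 and 239 bp in untreated replicate 1. The cluster of Foxd2 and Foxe3 on chromosome 4, over 21.8 kb, held 1 peak in all, of 452 bp, in untreated replicate 2.

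Broad members that were marked ranked higher by peak length in the untreated libraries than in the neomycin libraries. Their median percentile among marked promoters of the same library was 53.6 and 33.9 with neomycin (9 and 7 genes) and 89.6 and 79.0 without (12 and 10 genes). For restricted members it was 24.1 and 55.1 with neomycin and 32.6 and 55.7 without. Different genes enter each median, and the difference was not tested.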
